A study of Mus musculus with 105 samples.

Results

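Polyamine metabolism was followed through 8 mouse genes in CD4+ T cells: Odc1, Amd1, Srm and Sms, whose proteins make polyamines, Oaz1 and Oaz2, which encode antizymes, Azin1, which encodes an antizyme inhibitor, and Sat1, which encodes an acetyltransferase. They were chosen by name, not by their values, and are 8 of the 22322 genes in the table of read counts. All 8 of 8 had enough exon counts to be among the 10741 genes tested. The cells were primary CD4+ T cells of C57BL/6J female mice aged 6 weeks, purified by negative selection from spleen and lymph nodes. For activation, beads carrying anti-CD3 and anti-CD28 antibodies were used; resting cells were left without them. The study asked how mRNA decays with and without translation, and the libraries form 35 groups of 3 replicates, numbered 2, 3 and 4. Of these groups 21 are of activated and 14 of resting cells. In each state there were untreated cells (0, 1 and 3 h), cells with triptolide at 25 µM (0, 1 and 3 h), cells with cycloheximide at 100 µg/ml or harringtonine at 2 µg/ml (1 and 3 h), and cells with triptolide together with either of these (1 and 3 h). Activated cells also received the nucleoside analog DRB at 65 µM (0, 1 and 3 h), and DRB together with cycloheximide or harringtonine (1 and 3 h). Triptolide and DRB stop transcription by RNA polymerase II. Cycloheximide stalls ribosomes during elongation, and harringtonine holds them close to the start codon. How long the beads had been present, and how long an inhibitor had acted in the groups labelled 0 h, is not given in the sources used here.

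Polyamines are small positively charged molecules that bind RNA and that dividing cells need. Ornithine decarboxylase (Odc1) makes putrescine, S-adenosylmethionine decarboxylase (Amd1) supplies the aminopropyl donor, and spermidine synthase (Srm) and spermine synthase (Sms) use that donor to build the longer polyamines. Antizymes (Oaz1, Oaz2) bind ornithine decarboxylase and send it to the proteasome, antizyme inhibitor 1 (Azin1) binds antizyme in its place, and spermidine/spermine N1-acetyltransferase (Sat1) acetylates polyamines for export or back-conversion. In T cells polyamine synthesis is known to rise on activation, and Odc1 is a known target of the transcription factor Myc. Part of the control of these genes acts on ribosomes, which is why the inhibitors of translation bear on them: antizyme is made only when ribosomes slip forward by 1 base at an early stop codon, a step that polyamines favour, and the leader of Amd1 mRNA holds a short open reading frame that slows ribosomes when polyamines are abundant.

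The frameshift sites are shown because both antizyme mRNAs have a stop codon that translation must pass. Capitals mark the last codon of the first frame and the stop codon that follows it. The sequences were read from mouse build mm10, 5′ to 3′.
Oaz1: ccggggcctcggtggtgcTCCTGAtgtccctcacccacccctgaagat
Oaz2: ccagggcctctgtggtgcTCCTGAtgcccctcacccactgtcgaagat
The Oaz1 window lies at chr10:80828274-80828321 (plus strand) and the Oaz2 window at chr9:65686251-65686298 (plus strand). The annotation of each transcript used skips 4 bases at the frameshift, and these were filled in from other transcripts of the same gene. The 2 windows are the same at 41 of 48 bases, with the same TCC codon and TGA stop. In the transcripts used, 68 codons of Oaz1 and 32 codons of Oaz2 precede the TGA. Reading on in the +1 frame, 159 codons follow before a TAG in Oaz1 and 157 before a TAA in Oaz2. The short open reading frame of Amd1 lies in the 5′ UTR at chr10:40302155-40302175 (minus strand), has 6 codons before its stop, and is shown with its start and stop codons in capitals.
Amd1: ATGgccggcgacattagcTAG

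On mm10, with the GENCODE M21 annotation, Odc1 lies at chr12:17544794-17551505 (plus strand), Amd1 at chr10:40287458-40302186 (minus), Srm at chr4:148591503-148594993 (plus) and Sms at chrX:157443855-157492287 (minus). Oaz1 lies at chr10:80826656-80829290 (plus), Oaz2 at chr9:65668001-65690300 (plus), Azin1 at chr15:38487427-38519266 (minus) and Sat1 at chrX:155213132-155216449 (minus). Myc and its partner Max bind the letters CACGTG. Of the 6 members with a 300-base RefSeq promoter window (build GRCm38.p6, 250 bases before to 50 after the start), 1 held CACGTG: Sms, which has 2 windows, with the letters at position 55 of one and not in the other. Srm and Azin1 had no window. Across all 32851 such windows 7.15% held it, a share of windows and not of genes. CACGTG reads the same on both strands, and a match is a description of letters only. Some reads are uncertain. Intronic reads of Odc1 may include the small nucleolar RNA Gm22748, which lies inside an Odc1 intron on the same strand (chr12:17546146-17546281), Azin1 shares 358 exon bases with the antisense gene Gm49077, and Oaz1 holds the microRNA gene Mir1982 in an exon. Whether the counting used strand is not given in the sources used here. The annotation also lists pseudogenes of Amd1, Oaz1, Oaz2 and Sms, and reads that fit a gene and its pseudogene may have been left out as not unique. The near copy Amd2 had at most 2 counts in a library. The paralogs Oaz3 and Azin2 had 42 and 32 counts over all libraries, and Sat2 had 0.

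The libraries held 6300 to 6479221 exon counts (median 2135827). Replicate 3 of resting cells after 1 h of triptolide was the shallowest, at 6300 exon and 660 ERCC counts, and replicate 3 of activated untreated cells at 0 h came next, at 141028 and 7278. Every other library had 551975 exon counts or more. CPM are counts per 1000000 of a library's effective size, its exon counts in tested genes times the TMM factor named below. Marker genes fit the labels: Il2ra, the activation-induced IL-2 receptor alpha chain, stood at 751, 251 and 385.0 CPM in activated untreated cells at 0 h and at 57.3, 45.2 and 39.9 in resting ones. Cd4 was present in both states, at 244, 129 and 231 CPM in activated and 337, 258 and 308 in resting cells, while Cd8a was at most 2.31 CPM. Cd8a and Cd8b1 summed were 0 to 9.90 CPM in activated and 7.12 to 11.6 CPM in resting untreated cells at 0 h. The summed level of 5 B-cell markers in the table was 6.13 to 145 CPM in activated and 93.3 to 741 CPM in resting untreated cells at 0 h, most of it Igkc. Its part in differences between the states was not tested. The natural killer marker Ncr1 was at 0 in these libraries. Summed with Klrb1c and Klrk1, natural killer markers reached 4.05 to 12.3 CPM in activated and 5.70 to 8.57 CPM in resting ones. Changes are given on 2 scales. A relative change sets the typical mRNA of the libraries to no change (TMM factors), and a spike-scaled change is per count of ERCC RNAs, synthetic RNAs added to each sample. Each change is a log2 value ± SE from groups of n = 3. Levels are relative CPM in the order of replicates 2, 3 and 4, and adjusted p values come from edgeR's quasi-likelihood test over all 10741 genes. A gene was called at an adjusted p under 0.05. Some counts of calls come from an alternative fit with the replicate number as a block. Percentages of all genes always come from the fit without it, so they are not the share to set beside those counts. The labels call the replicates biological but tie no number to a mouse, so p values measure the spread between these libraries. In bulk RNA, fewer cells expressing a gene and less RNA per cell cannot be told apart.

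Per kilobase of exon, Odc1 was the most abundant member, with a median over the 35 groups of 529 CPM per kb. Oaz1 followed at 232 and Sat1 at 57.8 CPM per kb. Azin1 (26.2), Srm (20.5), Sms (18.5), Oaz2 (13.6) and Amd1 (7.76) had the lower medians in CPM per kb. Srm had the widest span of group means, from 2.09 ± 2.03 CPM in resting cells after 1 h of triptolide to 111 ± 27.1 CPM (SD, n = 3) in activated untreated cells at 3 h, 53.2-fold. Its lowest group includes the library of 6300 counts, in which Srm had none. Amd1 spanned 10.3-fold in CPM, from 6.48 ± 4.79 (resting, 3 h triptolide with harringtonine) to a mean of 67.0 (resting, 0 h untreated, with 87.3, 53.1 and 60.5 in the 3 libraries). The other members spanned less: Oaz2 7.13-fold, Odc1 4.83-fold, Sms 4.76-fold, Oaz1 3.43-fold, Azin1 2.96-fold and Sat1 2.93-fold. Neighbouring groups were not separable when the 35 group means of a gene were put in order. All 34 neighbouring pairs overlapped in their libraries for 6 genes, and 33 of 34 for Srm and Sms. The plot of CPM by library shows the groups of each gene side by side.

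**Figure D1:**
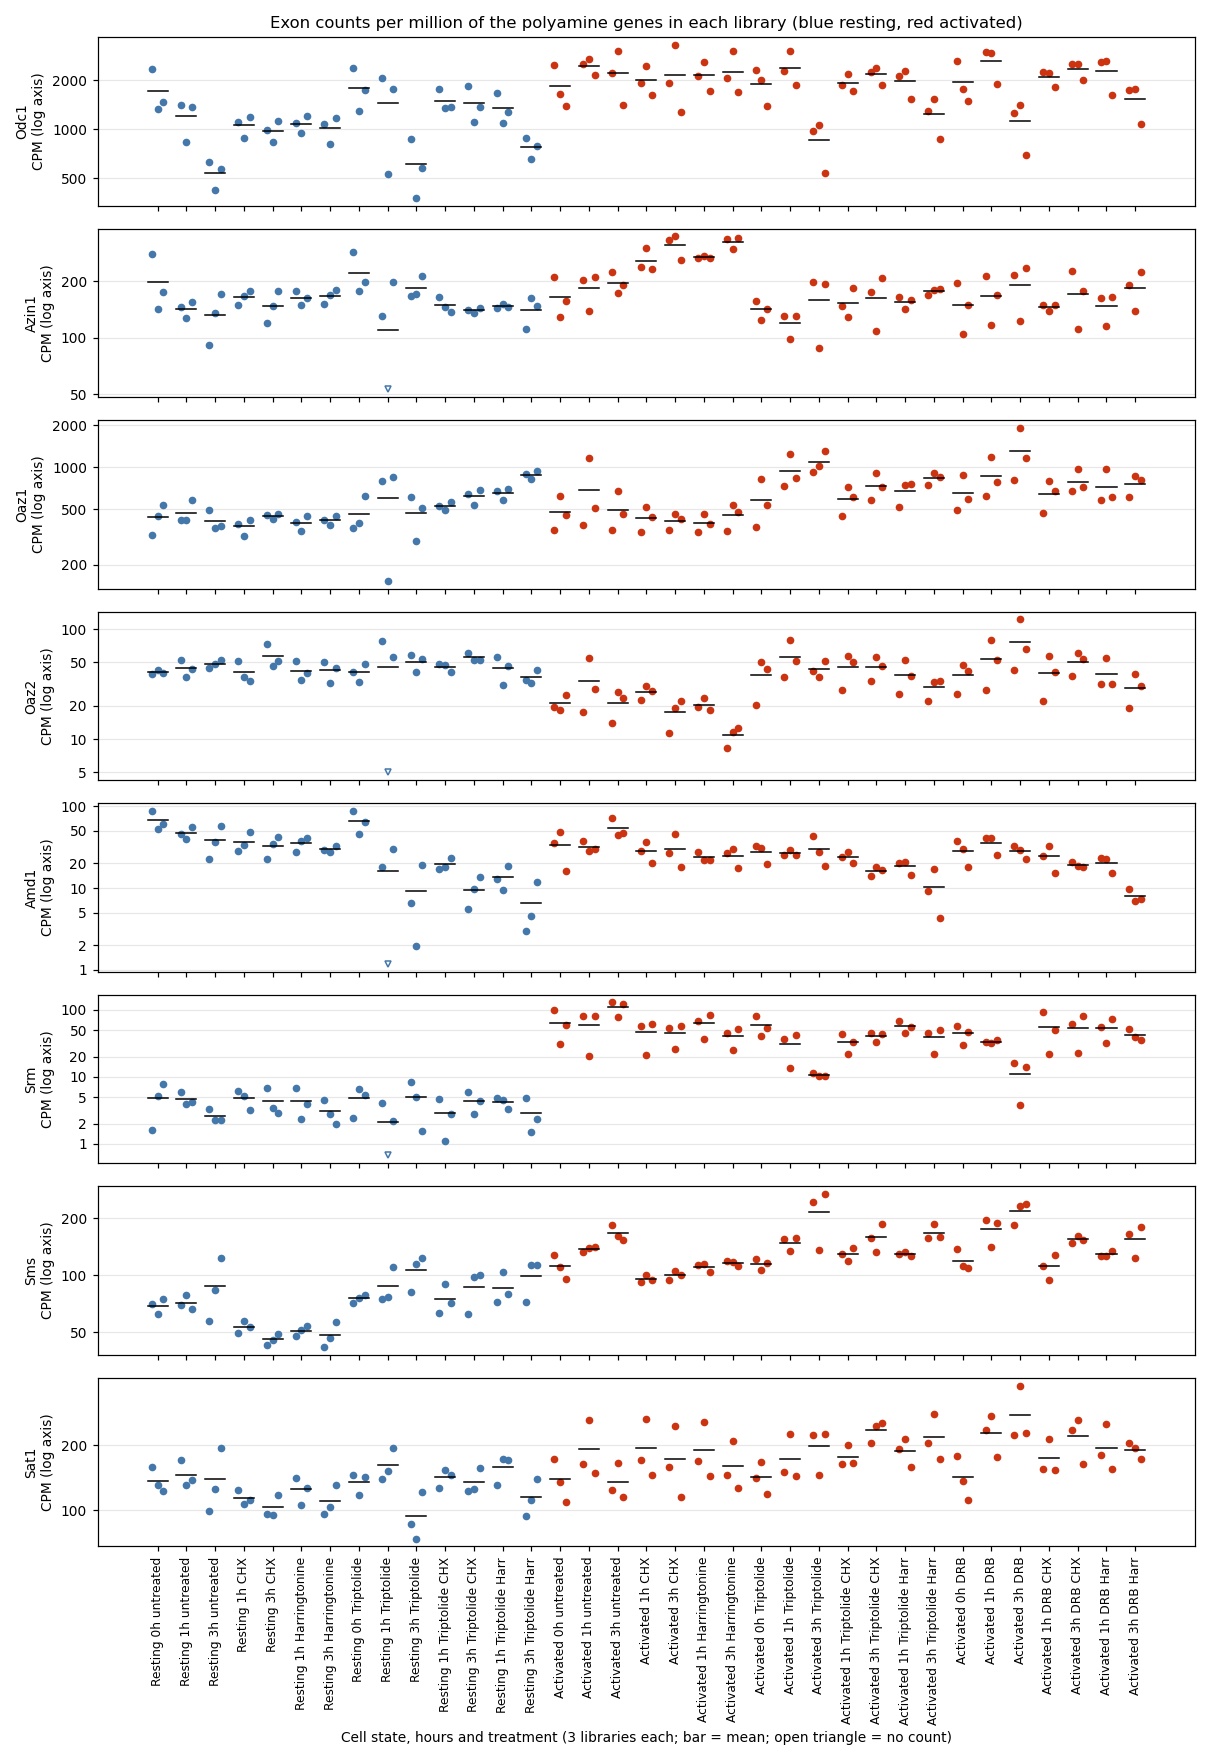
Exon CPM (log axis) of the 8 polyamine genes in each library, with 3 points per group, blue for resting and red for activated cells. Black bars are group means and open triangles mark libraries without a count. Srm is the gene whose activated and resting libraries stand apart most, and Odc1 falls to its lowest levels in resting cells at 3 h without or with triptolide.

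At the start of the time course the aminopropyl transferases Srm and Sms were higher in activated than in resting cells and Amd1 was lower, with Srm differing most, while Odc1 was not called. Srm stood at 98.2, 30.6 and 60.1 CPM in activated untreated cells at 0 h (387, 5 and 104 counts) and at 1.61, 5.12 and 7.83 CPM in resting ones (3, 11 and 22 counts). Every activated library was above every resting one, and the relative change was 3.80 ± 0.50 (adjusted p = 6.24e-09), a 13.9-fold higher level on a small resting count. Sms, which makes spermine, stood at 128, 110.3 and 95.4 CPM in activated and 70.2, 62.4 and 74.4 CPM in resting cells, without overlap, and was 1.62-fold higher (0.70 ± 0.19, adjusted p = 0.00419). Amd1, which supplies the donor for both enzymes, went the other way: 35.02, 49.03 and 16.2 CPM in activated and 87.3, 53.1 and 60.5 CPM in resting cells, -1.21 ± 0.37 (adjusted p = 0.00933). Odc1 stood at 2490.2, 1655 and 1384 CPM in activated and 2353, 1337 and 1478 CPM in resting cells, and the groups overlapped (0.10 ± 0.30, adjusted p = 0.854, 95% interval -0.49 to 0.70). Oaz2 had 19.5, 18.4 and 25.4 CPM in activated and 39.1, 42.8 and 39.9 CPM in resting cells, without overlap, but -0.90 ± 0.37 (adjusted p = 0.0636) did not pass. Oaz1, Azin1 and Sat1 overlapped between the states. Thus 3 of 8 members were called, beside 26.8% of all genes tested. The spike-scaled test called Srm (3.92 ± 0.64) and Sms (0.87 ± 0.22), 2 of 8 beside 14.2% of all genes, and Amd1 at -1.02 ± 0.42 (adjusted p = 0.0912) was not called. Replicate 3 of the activated group is the library of 141028 counts. Without replicate 2, the relative values were -1.37 (adjusted p = 0.127) for Amd1 and 0.57 (adjusted p = 0.129) for Sms, and without replicate 4 that of Amd1 was -0.87 (adjusted p = 0.0962). Sms lost its spike-scaled call at 0 h without replicate 2 (0.80, adjusted p = 0.17).

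After 3 h in culture without inhibitor the states differed in Odc1 as well, and Odc1 had fallen in resting cells over that time. Odc1 in resting untreated cells went from 2353, 1337 and 1478 CPM at 0 h to 626, 422 and 574 CPM at 3 h, without overlap, a 3.19-fold fall (-1.67 ± 0.31, adjusted p = 0.000159). In activated untreated cells it stood at 2219, 3024 and 1402 CPM at 3 h, overlapping the 0 h libraries (0.26 ± 0.30, adjusted p = 0.646). The fall in resting cells was the only one of 8 members called in that time course, beside 6.39% of all genes, and spike-scaled it was -1.82 ± 0.41 (1 of 8, beside 1.74%), which lost its call without replicate 4 (-1.81, adjusted p = 0.365). With the replicate number as a block Amd1 (-0.77, adjusted p = 0.00675) and Azin1 (-0.56, adjusted p = 0.0341) were also called in resting cells on the relative scale, as was Azin1 without replicate 3 (-0.78, adjusted p = 0.0321) and Amd1 without replicate 4 (-1.25, adjusted p = 0.0413). In the activated time course Sms was the only member called, beside 13.6% of all genes, at 185, 160.2 and 154 CPM after 3 h (0.57 ± 0.19, adjusted p = 0.0332). That call was lost when any 1 replicate was left out (lowest value 0.47, adjusted p = 0.432, without replicate 4). With the block Amd1 (0.95, adjusted p = 0.00252) and Srm (0.76, adjusted p = 0.00685) were also called in activated cells, and Amd1 without the filter on low counts (0.91, adjusted p = 0.0286), with RLE factors (1.02, adjusted p = 0.0474) and with coding-sequence counts (1.09, adjusted p = 0.0472). Spike-scaled, Sms changed by 0.83 ± 0.22 (1 of 8, beside 7.74%). Sms lost its relative call without replicate 2 (0.61, adjusted p = 0.0939) or replicate 3 (0.57, adjusted p = 0.0912). Sms lost its spike-scaled call without replicate 2 (0.77, adjusted p = 0.199) or replicate 4 (0.79, adjusted p = 0.476).

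At 1 h, 3 of 8 members were called, all higher in activated untreated cells, beside 37.9% of all genes: Odc1 1.02 ± 0.31, Srm 3.74 ± 0.50 and Sms 0.95 ± 0.19. At 3 h, activated untreated cells had 4.10-fold more Odc1 than resting ones (2.03 ± 0.31, adjusted p = 5.72e-08), with all 3 activated libraries above all 3 resting ones. Srm had 129, 79.8 and 124 CPM in activated cells and 3.36, 2.25 and 2.27 CPM in resting cells (5, 5 and 9 counts), a difference of 5.44 ± 0.55 (adjusted p = 4.53e-14). Sms (0.90 ± 0.18) and Azin1 (0.55 ± 0.24) were also higher in activated cells. Oaz2 was lower, at 13.9, 27.003 and 23.5 CPM against 44.4, 48.2 and 52.8 CPM (-1.21 ± 0.34, adjusted p = 0.00198), so that 1 antizyme gene was lower in activated cells while the other, Oaz1, overlapped between states (0.27 ± 0.29, 95% interval -0.31 to 0.84). In all 5 of 8 were called, beside 53.8% of all genes, a share near that of all genes. Spike-scaled, where the median of all genes was 0.60, 7 of 8 were higher in activated cells, beside 40.6% of all genes. The member left out was Oaz2 at -0.54 ± 0.36 (adjusted p = 0.215). The call of Azin1 was lost without replicate 2 (0.22, adjusted p = 0.55) and that of Oaz2 without replicate 4 (-1.19, adjusted p = 0.0897). Azin1 lost its relative call at 3 h without replicate 4 (0.82, adjusted p = 0.0554).

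Other genes of the pathway were taken from a list of 30 for precursor supply, methionine salvage, oxidation, hypusine synthesis, transport and regulation, of which 22 were tested. At 0 h, 10 of the 22 were higher and 3 lower in activated cells, beside 26.8% of all genes called either way, and at 3 h 13 were higher and 3 lower, beside 53.8%. Myc, a transcription factor that targets Odc1, stood at 515, 306 and 314 CPM in activated and 8.57, 13.97 and 11.4 CPM in resting cells at 0 h (5.08 ± 0.36). Slc7a1, a carrier of cationic amino acids including arginine, differed by 3.50 ± 0.42, and Aldh18a1, which makes the proline and ornithine precursor pyrroline-5-carboxylate, by 2.40 ± 0.25. Eif5a, the translation factor that carries hypusine made from spermidine, stood at 941, 1146 and 899 CPM against 147, 121 and 133 CPM at 3 h (2.90 ± 0.17). These 4 did not overlap between states.

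When transcription was blocked in activated cells, Srm and Odc1 mRNA fell faster than the typical mRNA, and Sms and Oaz1 rose relative to it. Srm went from 81.4, 40.1 and 54.4 CPM at 0 h of triptolide to 11.5, 10.4 and 10.5 CPM at 3 h (20, 6 and 13 counts), without overlap, a relative change of -2.42 ± 0.50 (adjusted p = 4.75e-05). Odc1 went from 2306, 1994 and 1383 to 976, 1063 and 539.9 CPM, also without overlap (-1.14 ± 0.31, adjusted p = 0.00144). Sms rose in relative level from 122, 106 and 116 to 243, 136 and 269 CPM (0.93 ± 0.19, adjusted p = 2.06e-05). Oaz1 went from 371, 825 and 539 to 924, 1024 and 1296 CPM (0.90 ± 0.29, adjusted p = 0.00817). The remaining members overlapped between times: Amd1 0.16 ± 0.37, Azin1 0.20 ± 0.25, Oaz2 0.20 ± 0.35 and Sat1 0.48 ± 0.25. So 4 of 8 were called, 2 in each direction, beside 47.6% of all genes. At 1 h edgeR called 0 of 8, beside 24.2% of all genes, with 3 members at an unadjusted p under 0.05. Without the filter on low counts it called Srm (-0.88, adjusted p = 0.0121) and Oaz1 (0.66, adjusted p = 0.0425), without replicate 3 Oaz1 (0.78, adjusted p = 0.0179), and with the replicate number as a block 4 members: Srm (-0.91, adjusted p = 0.00202), Oaz1 (0.72, adjusted p = 0.000169), Oaz2 (0.55, adjusted p = 0.0189) and Sms (0.38, adjusted p = 0.0378). Oaz1 lost its relative call without replicate 2 (0.76, adjusted p = 0.0637) or replicate 4 (0.68, adjusted p = 0.267).

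Scaled on spike-ins, all genes had a median of -1.68, and 7 of 8 members fell, beside 77.7% of all genes. As exon counts per 1000000 ERCC counts, Srm went from 2409, 884 and 1086 exon counts to 77.5, 131 and 57.9, leaving 5.42% of the 0 h level (-4.20 ± 0.66, adjusted p = 4.46e-08). Odc1 kept 16.3%, Azin1 34.4%, Amd1 34.8%, Oaz2 37.4%, Sat1 44.3% and Sms 58.6% of the 0 h spike-scaled level. Oaz1 had the highest remaining level, 65.6%, and was not called (-0.61 ± 0.32, adjusted p = 0.074). Oaz1 had 10967, 18158 and 10759 exon counts per 1000000 ERCC counts at 0 h and 6225, 12892 and 7151 at 3 h, with replicate 3 the highest at both. Without replicate 3 of the 3 h group Oaz1 was called at -0.99 (adjusted p = 0.0091). The relative call of Oaz1 was lost with DESeq2 (0.68, adjusted p = 0.0631) and with library size alone (0.53, adjusted p = 0.114).

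With DRB, which blocks transcription at another step, Srm and Odc1 were again the members that fell furthest in activated cells. Srm went from 56.9, 29.6 and 47.4 to 15.96, 3.80 and 13.8 CPM (29, 3 and 17 counts at 3 h), -1.89 ± 0.48 (adjusted p = 0.000985), and Odc1 from 2623, 1754 and 1500.1 to 1251, 1406 and 699.8 CPM, -0.81 ± 0.30 (adjusted p = 0.0272). Neither overlapped. Sms rose in relative level by 0.86 ± 0.18, Oaz1 by 0.99 ± 0.29, Oaz2 by 1.003 ± 0.33 and Sat1 by 0.94 ± 0.25. The libraries of Oaz1 and Oaz2 overlapped between times in spite of their calls: Oaz2 had 25.8, 46.8 and 41.3 CPM at 0 h and 42.9, 123 and 65.9 CPM at 3 h, with replicate 3 high at both. In all 6 of 8 were called, beside 39.8% of all genes. Spike-scaled, 7 of 8 fell, beside 78.2% of all genes: Srm kept 9.69%, Odc1 19.6%, Amd1 35.1% and Azin1 45.3% of the 0 h level, while Oaz1, Sat1 and Sms kept 62.4%, 63.7% and 61.4%. Oaz2 at -0.66 ± 0.36 (adjusted p = 0.0838) missed the threshold and passed it with the replicate number as a block (-0.65, adjusted p = 0.00401). The change under triptolide minus that under DRB was called for 0 of 8 members by edgeR on either scale, none with an unadjusted p under 0.05, beside 1.38% of all genes on the relative and 0.633% on the spike-scaled one. For Srm the relative difference was -0.52 ± 0.71 with a 95% interval of -1.92 to 0.88, and for Odc1 -0.33 ± 0.43 (-1.17 to 0.51). The relative calls of Oaz2 and Odc1 were lost with only the compared libraries in the fit (1.02, adjusted p = 0.06, and -0.79, adjusted p = 0.111), that of Oaz1 without replicate 4 (0.99, adjusted p = 0.122) and that of Sat1 without replicate 3 (0.61, adjusted p = 0.055). Odc1 lost its relative call without replicate 2 (-0.65, adjusted p = 0.257) or replicate 4 (-0.73, adjusted p = 0.152), and Oaz2 without replicate 3 (0.67, adjusted p = 0.129) or replicate 4 (1.18, adjusted p = 0.119).

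In resting cells Amd1 was the member that fell furthest after triptolide. It went from 87.4, 45.2 and 64.9 CPM at 0 h (216, 138 and 194 counts) to 6.65, 1.97 and 19.2 CPM at 3 h (4, 2 and 25 counts), a relative change of -2.68 ± 0.42 (adjusted p = 1.17e-07), or 6.41-fold. Every 3 h library was below every 0 h library, and the 3 h values differed widely among themselves. At 1 h Amd1 was the only member called (1 of 8, beside 25.7% of all genes), at 18.2, 0 and 29.8 CPM (-1.39 ± 0.39, adjusted p = 0.00482), with 0 counts in the library of 6300. Odc1 fell from 2379, 1294 and 1735 to 878, 380 and 581 CPM (-1.56 ± 0.31, adjusted p = 1.53e-05), beside its fall in untreated resting cells given above. Sms rose in relative level from 71.7, 75.6 and 78.97 to 81.4, 114 and 123 CPM (0.51 ± 0.19, adjusted p = 0.0178). In all 3 of 8 were called, beside 56.8% of all genes. The call of Sms rested on the scaling: it was 0.26 (adjusted p = 0.198) with DESeq2 and 0.01 (adjusted p = 0.973) with library size alone. Sat1 stood at -0.51 ± 0.26 (adjusted p = 0.0852) and passed with the replicate number as a block (-0.52, adjusted p = 0.0122). Amd1 lost its relative call at 1 h without replicate 2 (-0.93, adjusted p = 0.251). Sms lost its relative call at 3 h without replicate 3 (0.47, adjusted p = 0.0993) or replicate 4 (0.37, adjusted p = 0.232).

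Spike-scaled, all 8 members fell in resting cells, beside 75.5% of all genes, and the median of all genes was -1.77. Amd1 kept 4.37% of the 0 h level and Odc1 10.7%. Sat1 kept 20.9%, Azin1 24.7%, Srm 27.6%, Oaz1 32.9%, Oaz2 37.8% and Sms 42.4%. The value of Srm rests on 5, 5 and 2 counts at 3 h and lost its call without replicate 4 (-1.12, adjusted p = 0.377).

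**Figure D2:**
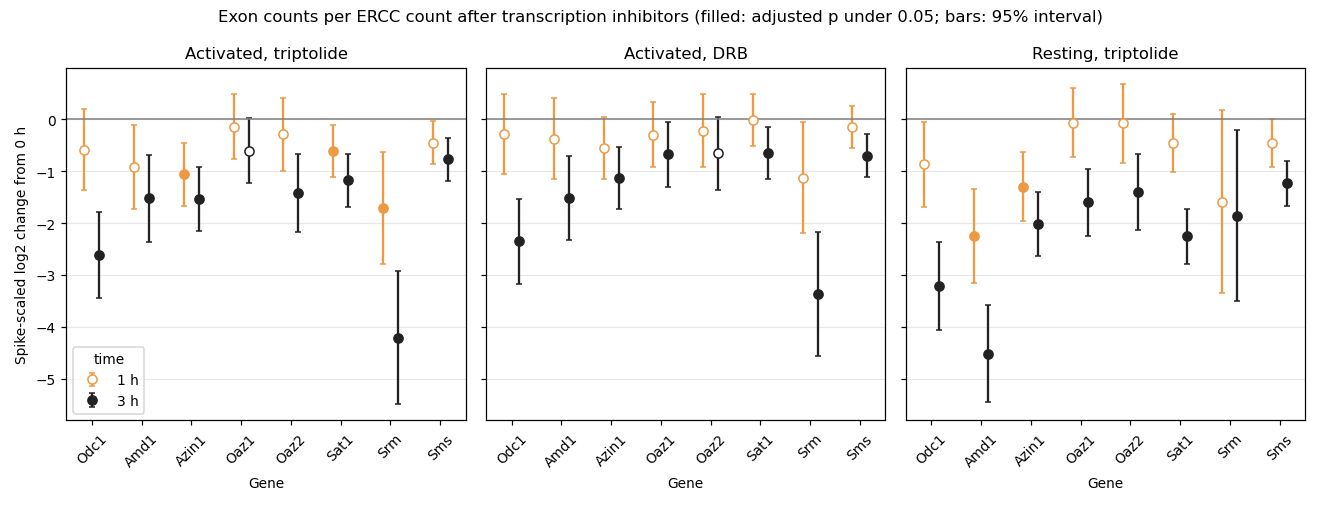
Spike-scaled log2 change of the 8 genes from 0 h of the same inhibitor, in activated cells with triptolide or DRB and in resting cells with triptolide, after 1 h (orange) and 3 h (black). Points are fitted changes over 3 libraries per group, bars are 95% intervals, and filled points passed an adjusted p under 0.05. After 3 h of triptolide Amd1 lies lower in resting than in activated cells, and Srm is the lowest point in activated cells.

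The fall of Amd1 under triptolide differed between the states. In activated cells Amd1 stood at 32.6, 30.5 and 19.4 CPM at 0 h (60, 63 and 30 counts) and at 43.7, 27.8 and 18.6 CPM at 3 h (76, 16 and 23 counts). The 3 libraries of each time overlapped there, while those of resting cells did not. The difference of the 2 relative changes, activated minus resting, was 2.84 ± 0.57 (adjusted p = 0.000555), and the spike-scaled difference was 2.99 ± 0.63 (adjusted p = 0.00248). It was the only member called on the relative scale (1 of 8, beside 6.47% of all genes) and on the spike-in scale (1 of 8, beside 1.95%). Without replicate 2 the relative difference was 2.12 (adjusted p = 0.162), and the spike-scaled one was 2.55 (adjusted p = 0.171) without replicate 2 and 2.50 (adjusted p = 0.056) without replicate 3. For Odc1 the difference was 0.42 ± 0.43 (95% interval -0.42 to 1.26), for Sat1 0.996 ± 0.36 (adjusted p = 0.0828) and for Srm -2.21 ± 1.00 (adjusted p = 0.188). The 95% interval of Srm was -4.16 to -0.26, on few Srm counts in resting cells. Amd1 also moved over 3 h without an inhibitor. Its mean went from 67.0 to 38.6 CPM in resting untreated cells and from 33.4 to 54.6 CPM in activated untreated cells. The part of this movement in the triptolide difference of Amd1 was not tested.

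Of the wider list, after 3 h of triptolide 4 of 22 genes rose in relative level and 8 fell in activated cells, beside 47.6% of all genes called either way. In resting cells 2 rose and 10 fell, beside 56.8%, and with DRB 2 rose and 7 fell, beside 39.8%. These shares are near those of all genes. Mat2b, a subunit of methionine adenosyltransferase, which makes the substrate of Amd1, fell in all 3 settings: -2.09 ± 0.35 in activated cells with triptolide, -1.88 ± 0.34 with DRB and -2.37 ± 0.33 in resting cells. Slc3a2, the heavy chain of several amino acid transporters, fell in activated cells by both inhibitors (-1.77 ± 0.24 and -1.66 ± 0.24), and Myc fell with triptolide (-1.93 ± 0.32). In resting cells the other 3 named genes belong to methionine supply and salvage: Mat2a -2.28 ± 0.34, Enoph1 -3.12 ± 0.47 and Mtap -2.05 ± 0.32. Eif5a2, a paralog of Eif5a, rose in relative level with triptolide in activated cells (1.87 ± 0.24).

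Adding cycloheximide during the transcription block left more Odc1 and Srm mRNA in activated cells, and more Odc1 mRNA in resting cells. In activated cells with triptolide for 3 h, Odc1 stood at 976, 1063 and 539.9 CPM, and at 2254, 2389 and 1879.6 CPM when cycloheximide was added, without overlap (1.34 ± 0.31, adjusted p = 0.0005, 2.53-fold). Srm went from 11.5, 10.4 and 10.5 to 45.8, 32.7 and 43.4 CPM (1.90 ± 0.50, adjusted p = 0.0028). These 2 of 8 were called, beside 27.3% of all genes. With the replicate number as a block 5 were called, as Amd1 (-0.88, adjusted p = 0.00914), Oaz1 (-0.60, adjusted p = 0.00162) and Sms (-0.46, adjusted p = 0.00698) also passed, each lower with cycloheximide. Spike-scaled, 4 of 8 were higher with cycloheximide, beside 34.6% of all genes: Odc1 1.83 ± 0.41, Srm 2.68 ± 0.64, Sat1 0.93 ± 0.26 and Azin1 0.77 ± 0.31. Oaz2 at 0.77 ± 0.37 (adjusted p = 0.101) passed only with the block (0.72, adjusted p = 0.00509). Without replicate 4 the relative value of Srm was 1.84 (adjusted p = 0.0884), and without replicate 3 of activated 3 h triptolide the spike-scaled value of Azin1 was 0.74 (adjusted p = 0.0701). Azin1 lost its spike-scaled call without replicate 2 (0.76, adjusted p = 0.155) or replicate 4 (0.59, adjusted p = 0.506), and Sat1 without replicate 2 (0.97, adjusted p = 0.0518) or replicate 4 (0.82, adjusted p = 0.102). Srm lost its spike-scaled call without replicate 4 (2.44, adjusted p = 0.0756).

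With DRB the same pair rose. Odc1 went from 1251, 1406 and 699.8 to 2528, 2509 and 2013 CPM (1.07 ± 0.31, adjusted p = 0.00841) and Srm from 15.96, 3.80 and 13.8 to 60.8, 22.6 and 80.3 CPM (2.24 ± 0.49, adjusted p = 0.000457). Sms was lower by a small amount (-0.50 ± 0.19, adjusted p = 0.05), a call lost without any 1 replicate and with DESeq2 (-0.41, adjusted p = 0.0672). In all 3 of 8 were called, beside 17.6% of all genes. The replicate number as a block, for which no share of all genes is given, made this 5. It added Oaz1 (-0.66, adjusted p = 0.0009) and Oaz2 (-0.51, adjusted p = 0.0399). Spike-scaled, Odc1 (1.81 ± 0.41) and Srm (2.86 ± 0.61) were called, 2 of 8 beside 29.7% of all genes, and with the block also Azin1 (0.54, adjusted p = 0.0301) and Sat1 (0.45, adjusted p = 0.0233). Without replicate 4 the relative values were 0.96 (adjusted p = 0.12) for Odc1 and 2.03 (adjusted p = 0.0872) for Srm. Odc1 lost its relative call without replicate 2 (1.15, adjusted p = 0.0854), and Sms without replicate 2 (-0.53, adjusted p = 0.114), replicate 3 (-0.42, adjusted p = 0.2) or replicate 4 (-0.39, adjusted p = 0.395). Srm lost its spike-scaled call without replicate 4 (2.50, adjusted p = 0.065).

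In resting cells with triptolide, cycloheximide gave Odc1 at 1839, 1116 and 1366 CPM against 878, 380 and 581 CPM without it, with no overlap (1.24 ± 0.31, adjusted p = 0.00114). It was the only member called (1 of 8, beside 35.2% of all genes). With the replicate number as a block, Oaz1 (0.42, adjusted p = 0.028) and Sat1 (0.51, adjusted p = 0.0211) were called too, 3 in all. Amd1, the member that fell furthest in resting cells, stood at 5.54, 9.61 and 13.5 CPM with cycloheximide and overlapped the libraries without it (-0.12 ± 0.50, 95% interval -1.09 to 0.85). Spike-scaled, 5 of 8 were higher with cycloheximide, beside 46% of all genes: Odc1 2.14 ± 0.42, Sat1 1.43 ± 0.27, Oaz1 1.27 ± 0.33, Oaz2 1.07 ± 0.37 and Sms 0.58 ± 0.22. Azin1 joined them with the block (0.51, adjusted p = 0.0305). The effect of cycloheximide under triptolide, activated minus resting, was called for 0 of 8 members by edgeR on either scale (0 of 8 with DESeq2 on the relative scale), beside 0.289% of all genes (relative) and 0% (spike-scaled). A single member, Oaz1, had an unadjusted p under 0.05 on either scale (-0.96 ± 0.41 relative, -1.22 ± 0.45 spike-scaled). For Odc1 that difference was 0.10 ± 0.43 with a 95% interval of -0.74 to 0.95. Sms lost its spike-scaled call without replicate 2 (0.56, adjusted p = 0.163) or replicate 4 (0.53, adjusted p = 0.222), and Oaz1 without replicate 4 (1.21, adjusted p = 0.0591). Oaz2 lost its spike-scaled call without replicate 4 (1.09, adjusted p = 0.152).

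Cycloheximide without a transcription inhibitor gave another picture for Srm in activated cells. Srm stood at 54.2, 26.3 and 57.2 CPM with cycloheximide for 3 h and at 129, 79.8 and 124 CPM in untreated cells at 3 h, without overlap (-1.27 ± 0.39, adjusted p = 0.00815). Sms (-0.74 ± 0.18) and Amd1 (-0.87 ± 0.33) were lower as well, and Azin1 was higher, at 333, 346 and 261 against 223, 172 and 191 CPM (0.68 ± 0.24, adjusted p = 0.0233). Odc1 overlapped (-0.04 ± 0.30). In all 4 of 8 were called, beside 30% of all genes. The effect of cycloheximide under triptolide minus its effect alone was 3.17 ± 0.64 (adjusted p = 7.41e-05) for Srm and 1.38 ± 0.43 (adjusted p = 0.0122) for Odc1, the 2 of 8 members called, beside 23.9% of all genes. Spike-scaled, that difference was 3.46 ± 0.82 (adjusted p = 0.00169) for Srm (1 of 8, beside 15.5%) and 1.38 ± 0.56 (adjusted p = 0.0853) for Odc1, which passed without replicate 3 of activated 3 h triptolide (2.05, adjusted p = 0.00759). Spike-scaled, cycloheximide alone raised Azin1 (1.15 ± 0.30) and Sat1 (0.83 ± 0.26), 2 of 8 beside 25.2% of all genes, and Srm at -0.78 ± 0.51 (adjusted p = 0.271) was called only with the block (-0.82, adjusted p = 0.0298). The relative calls of Amd1, Srm and Sms were lost without replicate 2 (-0.49, adjusted p = 0.485, -1.22, adjusted p = 0.0705, and -0.55, adjusted p = 0.0529) and that of Azin1 without replicate 4 (0.86, adjusted p = 0.0851). Odc1 lost its relative call as the difference between the 2 effects without replicate 2 (1.28, adjusted p = 0.143) or replicate 4 (1.13, adjusted p = 0.167). Amd1 lost its relative call with cycloheximide alone without replicate 4 (-0.61, adjusted p = 0.208), and Srm without replicate 4 (-1.29, adjusted p = 0.128). Sat1 lost its spike-scaled call with cycloheximide alone without replicate 2 (0.75, adjusted p = 0.162), and Azin1 without replicate 4 (1.33, adjusted p = 0.0654). Srm lost its spike-scaled call as the difference between the 2 effects without replicate 4 (3.21, adjusted p = 0.202).

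In resting cells cycloheximide alone left Odc1 at 984, 832 and 1118 CPM at 3 h, above 626, 422 and 574 CPM in untreated cells (0.86 ± 0.31, adjusted p = 0.0288), and Sms at 42.9, 45.7 and 49.002 CPM, below 57.2, 83.3 and 124 CPM (-0.96 ± 0.19, adjusted p = 5.14e-05). These 2 of 8 were called, beside 26.3% of all genes, and Sat1 with the block (-0.44, adjusted p = 0.0263). The call of Odc1 was lost when any 1 replicate was left out (0.85, adjusted p = 0.146, without replicate 4) and that of Sms without replicate 4 (-0.62, adjusted p = 0.11). Spike-scaled, where the median of all genes was 1.02, 6 of 8 were higher, beside 61.1% of all genes: Odc1 1.86 ± 0.41, Srm 1.83 ± 0.77, Oaz2 1.34 ± 0.35, Azin1 1.21 ± 0.30, Oaz1 1.12 ± 0.32 and Sat1 0.62 ± 0.25. Amd1 joined them with the block (0.82, adjusted p = 0.00412). Activated minus resting, the effect of cycloheximide alone was called for 0 of 8 members by edgeR on the relative scale, beside 16.6% of all genes, with Srm at -1.98 ± 0.77 (adjusted p = 0.0634). DESeq2 called 1. Spike-scaled, the difference of Srm was -2.61 ± 0.93 (adjusted p = 0.0431), 1 of 8 beside 15.1%, and it was lost without replicate 2 (-2.38, adjusted p = 0.189) or 4 (-2.87, adjusted p = 0.344). Odc1 lost its relative call without replicate 2 (0.99, adjusted p = 0.0964) or replicate 3 (0.87, adjusted p = 0.0549). Sat1 lost its spike-scaled call without replicate 2 (0.43, adjusted p = 0.307) or replicate 3 (0.55, adjusted p = 0.0607), and Srm without replicate 2 (1.49, adjusted p = 0.184) or replicate 4 (2.10, adjusted p = 0.114). Oaz1 lost its spike-scaled call without replicate 4 (1.08, adjusted p = 0.0731).

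**Figure D3:**
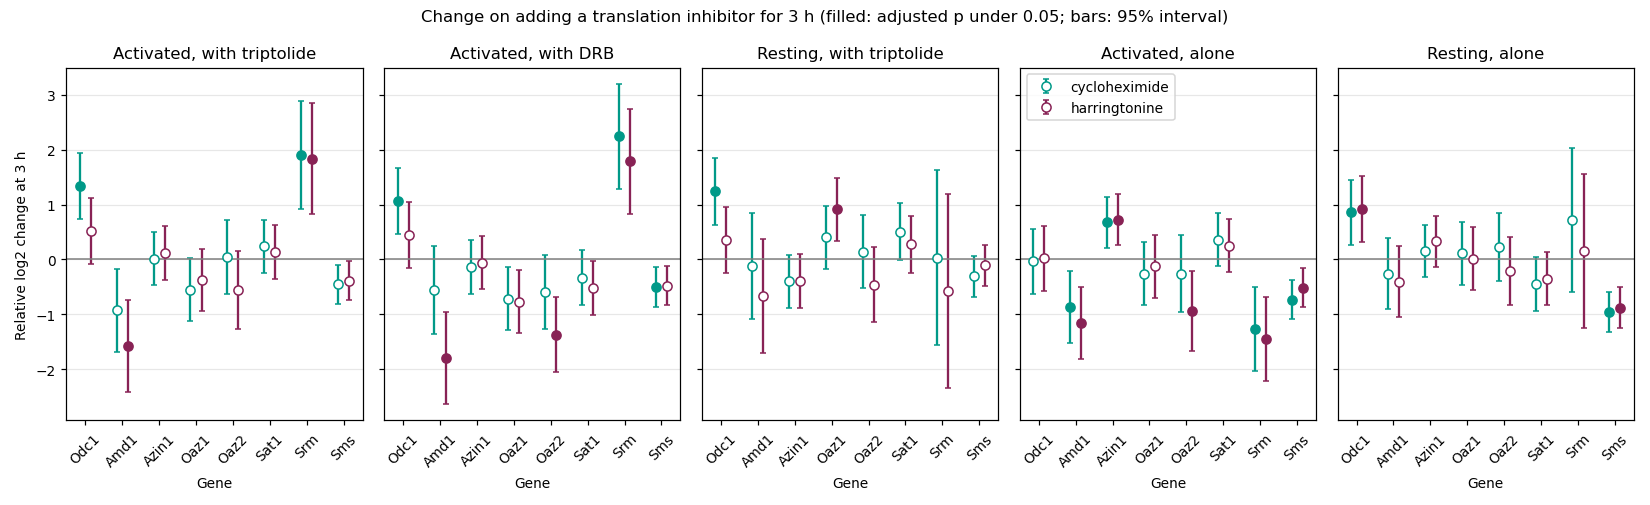
Relative log2 change of the 8 genes at 3 h when cycloheximide (green) or harringtonine (purple) was added to triptolide or DRB or given alone, 1 panel per setting. Points are fitted changes over 3 libraries per group, bars are 95% intervals, and filled points passed an adjusted p under 0.05. In activated cells Srm lies above 0 when a translation inhibitor was added to triptolide or DRB and below 0 when it was given alone.

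Harringtonine, the second translation inhibitor, also raised Srm during the transcription block, and it lowered Amd1. With triptolide in activated cells Srm stood at 45.9, 21.8 and 49.8 CPM with harringtonine (1.83 ± 0.52, adjusted p = 0.00494) and Amd1 at 9.18, 17.2 and 4.26 CPM against 43.7, 27.8 and 18.6 CPM without it (-1.58 ± 0.43, adjusted p = 0.00323), the 2 of 8 called, beside 24.7% of all genes. With DRB Amd1 went from 33.02, 29.1 and 22.8 to 9.65, 6.99 and 7.43 CPM (-1.80 ± 0.43, adjusted p = 0.00105), Oaz2 from 42.9, 123 and 65.9 to 19.3, 38.8 and 30.3 CPM (-1.37 ± 0.35, adjusted p = 0.00204), and Srm to 52.4, 38.8 and 35.03 CPM (1.79 ± 0.49, adjusted p = 0.00472). None of these groups overlapped. With DRB 3 of 8 were called, beside 18.7% of all genes. The replicate number as a block, for which no share of all genes is given, made this 7. It added Odc1 (0.47, adjusted p = 0.0217), Oaz1 (-0.71, adjusted p = 0.000284), Sat1 (-0.48, adjusted p = 0.024) and Sms (-0.47, adjusted p = 0.00929). Spike-scaled, Srm was called with triptolide (2.36 ± 0.65, 1 of 8 beside 22.7%), and Srm (2.38 ± 0.61), Odc1 (1.13 ± 0.40) and Amd1 (-1.20 ± 0.46) with DRB (3 of 8 beside 25.8%). Odc1 with triptolide, 0.76 ± 0.40 (adjusted p = 0.184), was called without replicate 3 of activated 3 h triptolide (1.43, adjusted p = 0.01). With the block Azin1 (0.57, adjusted p = 0.0215) and Oaz2 (-0.65, adjusted p = 0.0154) were also called with DRB. Without replicate 2 the relative value of Amd1 with triptolide was -1.04 (adjusted p = 0.254), and without replicate 4 that of Srm was 1.61 (adjusted p = 0.155) with triptolide and 2.03 (adjusted p = 0.0615) with DRB. Srm lost its relative call with triptolide without replicate 2 (1.75, adjusted p = 0.0771). Srm lost its relative call with DRB without replicate 2 (1.95, adjusted p = 0.0521), and Oaz2 without replicate 4 (-1.51, adjusted p = 0.0972). Srm lost its spike-scaled call with triptolide without replicate 2 (2.20, adjusted p = 0.0935) or replicate 4 (1.93, adjusted p = 0.26). Amd1 lost its spike-scaled call with DRB without replicate 2 (-1.04, adjusted p = 0.271), replicate 3 (-1.33, adjusted p = 0.0693) or replicate 4 (-1.18, adjusted p = 0.0961), and Odc1 without replicate 3 (0.91, adjusted p = 0.168) or replicate 4 (1.15, adjusted p = 0.155).

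In resting cells harringtonine added to triptolide gave 1 call of 8, beside 24% of all genes. Oaz1 stood at 891, 821 and 942 CPM with it and 613, 295 and 509 CPM without, and no library overlapped (0.91 ± 0.30, adjusted p = 0.0178). Odc1 passed with the block (0.40, adjusted p = 0.0483), and Oaz1 was 0.92 (adjusted p = 0.234) without replicate 4. Spike-scaled, Oaz1 (1.45 ± 0.33) and Sat1 (0.86 ± 0.27) were called (2 of 8, beside 26.9%), and with the block also Odc1 (0.94, adjusted p = 0.000416) and Sms (0.45, adjusted p = 0.0465). Sat1 lost its spike-scaled call without replicate 2 (0.89, adjusted p = 0.0948) or replicate 4 (0.81, adjusted p = 0.135), and Oaz1 without replicate 4 (1.35, adjusted p = 0.0706).

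Against activated untreated cells at 3 h, harringtonine alone gave lower Srm (-1.44 ± 0.39), Amd1 (-1.15 ± 0.34), Oaz2 (-0.94 ± 0.37) and Sms (-0.52 ± 0.18) and higher Azin1 (0.72 ± 0.24). These were 5 of 8, beside 31% of all genes. Azin1 stood at 337, 296 and 338 CPM, its highest group mean of the 35, and Oaz2 at 8.27, 11.7 and 12.6 CPM, its lowest. Spike-scaled, Azin1 was called (1.11 ± 0.30, 1 of 8 beside 24.1%) and Oaz2 was not (-0.58 ± 0.38, adjusted p = 0.289). With the block Amd1 (-0.79, adjusted p = 0.0123), Srm (-1.08, adjusted p = 0.00458) and Sat1 (0.61, adjusted p = 0.00143) were called on that scale. The relative call of Oaz2 was lost with DESeq2 (-0.94, adjusted p = 0.0517), that of Sms when any 1 replicate was left out (-0.40, adjusted p = 0.17, without replicate 2), that of Amd1 without replicate 2 (-0.92, adjusted p = 0.142), and those of Azin1 and Srm without replicate 4 (0.74, adjusted p = 0.145, and -1.51, adjusted p = 0.0689). In resting cells harringtonine alone raised Odc1 (0.92 ± 0.31, adjusted p = 0.0232) and lowered Sms (-0.88 ± 0.19, adjusted p = 0.000279), 2 of 8 beside 20.5% of all genes, both lost without replicate 4 (0.91, adjusted p = 0.152, and -0.62, adjusted p = 0.148). Spike-scaled, Odc1 (1.92 ± 0.41), Azin1 (1.40 ± 0.31), Oaz1 (1.02 ± 0.32), Oaz2 (0.86 ± 0.35) and Sat1 (0.70 ± 0.26) were higher, 5 of 8 beside 60.1%, and Amd1 with the block (0.73, adjusted p = 0.0119). Cycloheximide and harringtonine given alone for 3 h were compared directly too, and edgeR called 0 of 8 members in activated cells (beside 0% of all genes) and 0 of 8 in resting cells (beside 0.00931%) on the relative scale, none with an unadjusted p under 0.05. Odc1 lost its relative call in resting cells without replicate 2 (1.02, adjusted p = 0.101). Oaz2 lost its relative call in activated cells without replicate 3 (-0.72, adjusted p = 0.181) or replicate 4 (-0.93, adjusted p = 0.351), and Sms without replicate 3 (-0.47, adjusted p = 0.109) or replicate 4 (-0.48, adjusted p = 0.18). Oaz2 lost its spike-scaled call in resting cells without replicate 2 (0.71, adjusted p = 0.0665) or replicate 4 (0.98, adjusted p = 0.145), and Sat1 without replicate 2 (0.61, adjusted p = 0.136) or replicate 3 (0.56, adjusted p = 0.0631). Oaz1 lost its spike-scaled call in resting cells without replicate 4 (0.96, adjusted p = 0.107). Azin1 lost its spike-scaled call in activated cells without replicate 4 (1.14, adjusted p = 0.14).

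Of the 22 tested genes of the wider list, cycloheximide added to triptolide raised 4 and lowered 3 in activated cells, beside 27.3% of all genes called either way, and raised 10 and lowered 1 in resting cells, beside 35.2%. Mat2b was among those that rose in both (2.19 ± 0.35 and 2.34 ± 0.33). Slc3a2 rose in activated cells (1.34 ± 0.24), and Dohh, which completes hypusine, rose in resting cells (2.36 ± 0.40). Cycloheximide alone raised 5 and lowered 2 in resting cells, beside 26.3%, and raised 1 and lowered 8 in activated cells, beside 30%, where Eif5a went from 941, 1146 and 899 to 363, 419.6 and 375 CPM (-1.37 ± 0.16) and Aldh18a1 changed by -1.33 ± 0.23. Harringtonine added to triptolide raised 6 and lowered 3 in activated cells, beside 24.7%, and raised 8 and lowered 1 in resting cells, beside 24%. Alone it raised 2 and lowered 8 in activated cells, beside 31%, and raised 2 and lowered 2 in resting cells, beside 20.5%. Added to DRB in activated cells, cycloheximide raised 4 and lowered 1, beside 17.6%, and harringtonine raised 5 and lowered 1, beside 18.7%.

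Intronic counts were taken to follow unspliced RNA, and the members differed in how many they had. Those of Odc1 may include the small nucleolar RNA named above. In resting cells their mean was 724 CPM at 0 h and 2090 CPM at 3 h of triptolide, so they are not read as unspliced RNA alone. Of the counts of a gene over all libraries, 30.9% were intronic for Odc1, 33.4% for Amd1, 25.7% for Sms and 23.2% for Azin1. The shares were 8.77% for Sat1, 7.60% for Srm, 7.58% for Oaz2 and 0.339% for Oaz1, and 38 libraries had no intronic count of Srm, 25 none of Oaz1, 14 none of Oaz2 and 4 none of Sat1. At 0 h Srm had 90, 1 and 25 intronic counts in activated and 1, 0 and 1 in resting untreated cells (5.01 ± 1.08, adjusted p = 0.000395), and Sms had 542, 11 and 133 and 64, 128 and 112 (0.84 ± 0.27, adjusted p = 0.0233). These 2 of 8 were called, beside 13.5% of all genes tested for introns, and the same 2 at 3 h (4.83 ± 1.01 and 0.93 ± 0.26, beside 29.2%). The Srm values rest on at most 5 intronic counts per resting group. Both genes were higher in exon counts as well. Odc1, which was higher in exon counts at 3 h, had an intronic difference of 0.20 ± 0.87 with a 95% interval of -1.51 to 1.91. With such intronic counts and so wide an interval, nothing is read from it about Odc1 transcription. Sms lost its intronic call at 0 h without replicate 2 (0.63, adjusted p = 0.375) or replicate 4 (0.93, adjusted p = 0.0951).

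At 0 h of triptolide, activated cells already had less intronic Amd1 (-1.22 ± 0.33, adjusted p = 0.00751) and Azin1 (-1.004 ± 0.30, adjusted p = 0.0158) than untreated ones. Amd1 had 12, 20 and 10 intronic counts with triptolide and 203, 3 and 63 without, in libraries of unequal depth. These were 2 of 8, beside 14.8% of all genes, and DRB at 0 h called the same 2 (beside 13.9%), while edgeR called 0 of 8 exon values at 0 h of either inhibitor (beside 0.438% with triptolide and 0.614% with DRB), with Oaz2 at an unadjusted p under 0.05 in each. In resting cells edgeR called 0 of 8 intronic values at 0 h of triptolide, beside 0% of all genes, none with an unadjusted p under 0.05. After 3 h the intronic counts were low for most members, and relative intronic changes were called for Azin1 in activated cells with triptolide (-0.97 ± 0.36, adjusted p = 0.0275, 1 of 8 beside 37.4%) and for Odc1 (2.63 ± 0.92), Azin1 (-0.96 ± 0.34) and Sat1 (-2.86 ± 0.62) in resting cells (3 of 8 beside 45.7%). The intronic counts of Odc1 in resting cells were 1250, 2387 and 2646 at 0 h and 1245, 1589 and 3426 at 3 h of triptolide in libraries of unequal depth. The small nucleolar RNA named above lies in an Odc1 intron, its counts were not analysed here, and its part was not tested. With DRB at 3 h Odc1 (2.59 ± 0.92) and Amd1 (1.19 ± 0.35) were called, 2 of 8 beside 39.5%. Amd1 lost its intronic call without replicate 2 (-0.81, adjusted p = 0.448), and Azin1 without replicate 2 (-0.93, adjusted p = 0.126) or replicate 4 (-1.12, adjusted p = 0.0822). Azin1 lost its intronic call after 3 h of triptolide in activated cells without replicate 2 (-0.84, adjusted p = 0.108), replicate 3 (-0.76, adjusted p = 0.211) or replicate 4 (-1.11, adjusted p = 0.0782). Odc1 lost its intronic call after 3 h of triptolide in resting cells without replicate 2 (2.45, adjusted p = 0.173), and Azin1 without replicate 2 (-0.79, adjusted p = 0.0622) or replicate 3 (-1.02, adjusted p = 0.0807). Odc1 lost its intronic call after 3 h of DRB without replicate 2 (2.72, adjusted p = 0.169) or replicate 4 (2.56, adjusted p = 0.0729), and Amd1 without replicate 2 (0.70, adjusted p = 0.333).

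With a translation inhibitor alone, Srm was lower than in activated untreated cells at 3 h in its introns as well as its exons. Its exon CPM with cycloheximide (54.2, 26.3 and 57.2) or harringtonine (44.7, 25.6 and 51.7) overlapped untreated 0 h (98.2, 30.6 and 60.1). In activated untreated cells at 3 h Srm had 63, 19 and 52 intronic counts, with cycloheximide 8, 1 and 2 and with harringtonine 5, 8 and 6. The relative intronic changes were -3.33 ± 0.92 (adjusted p = 0.00763) with cycloheximide (1 of 8, beside 13.7%) and -2.48 ± 0.88 (adjusted p = 0.046) with harringtonine, where Amd1 was called as well (-0.95 ± 0.30, adjusted p = 0.0194, 2 of 8 beside 13.6%). Azin1, whose exon counts rose with both, had intronic changes of 0.38 ± 0.29 (95% interval -0.17 to 0.94) and 0.43 ± 0.28 (-0.13 to 0.99), neither called. When cycloheximide was added to triptolide, 0 of 8 intronic values were called by edgeR in activated (beside 0.298%) or resting cells (beside 0.353%) and none had an unadjusted p under 0.05. Amd1 lost its intronic call with harringtonine without replicate 2 (-0.82, adjusted p = 0.29) or replicate 3 (-0.95, adjusted p = 0.134), and Srm without replicate 2 (-2.29, adjusted p = 0.273) or replicate 4 (-2.21, adjusted p = 0.0555).

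**Figure D4:**
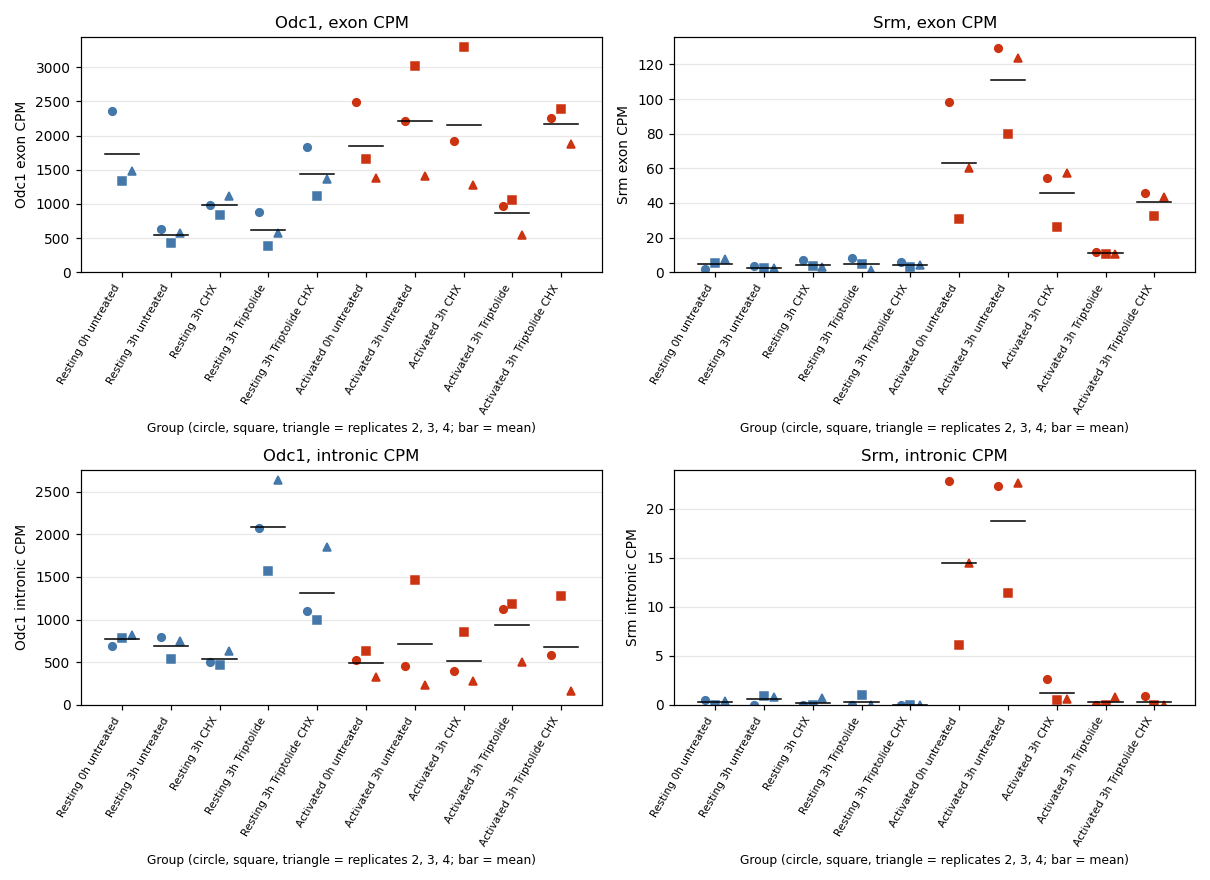
Exon CPM (top) and intronic CPM (bottom) of Odc1 (left) and Srm (right) in 10 groups, blue for resting and red for activated cells. Circles, squares and triangles are replicates 2, 3 and 4 and bars are means. Srm is lower with cycloheximide than in untreated activated cells at 3 h in both rows.

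Across the 35 group means of log2 CPM, each member was compared with 7777 genes. Srm was most like Eif4ebp1 (r = 0.96), Ctps (r = 0.96) and Gfi1 (r = 0.96), and Sms most like Ide (r = 0.97), Ptprc (r = 0.96) and Aldoa (r = 0.96). Odc1 was most like Mapkapk2 (r = 0.90), Ldha (r = 0.86) and Aars (r = 0.85). Azin1 was most like Wsb1 (r = 0.94), Smarcad1 and Patl1 (r = 0.90 each), and Amd1 most like Cldnd1 (r = 0.91), Uqcrb and Ctsc (r = 0.89 each). Oaz1 had Arpc1b (r = 0.89), Oaz2 had D10Jhu81e (r = 0.90), Arl6ip1 (r = 0.88) and Smim14 (r = 0.87), and Sat1 had Bzw1, Arpc4 and Sept7 (r = 0.84, 0.84 and 0.83). Among the 28 pairs of members, Sat1 with Sms (r = 0.757), Oaz1 with Sms (r = 0.745) and Odc1 with Srm (r = 0.745) were highest, and Oaz2 with Srm was lowest (r = -0.378). The groups share cell state and treatment, so these coefficients are descriptions over 35 points that are not independent.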

How the data were processed

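RNA sequencing libraries of mouse CD4+ T cells were made from RNA of an equal number of cells at each time point, with ERCC RNAs added, per the labels' protocols. The authors deposited whole-number read counts per gene for exons, coding sequence, introns and ERCC RNAs. The submitters' processing notes name TopHat2 2.0.13, Bowtie 1.1.1.0, HTSeq and build mm10. Whether the counting used strand is not given in the sources used here. The 5 rows not assigned to a gene were left out of library sizes and tests, and held 75.8 to 97.3% of a library's counts. Most of this was alignments that were not unique, 50.5 to 91.5% of a library (median 74.4%). In activated cells these held 60.0, 81.4 and 68.7% at 0 h of triptolide and 77.5, 78.9 and 79.1% at 3 h. Their part in the changes was not tested. A further 315 columns of per-sample values were not used.

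From the deposited counts, edgeR 4.0.16 (R 4.3.3, limma 3.58.1) fitted 1 mean for each of 35 groups over all libraries, with a robust quasi-likelihood F test. The filter filterByExpr left 10741 genes for exons and 10750 for introns. Relative changes used TMM factors, and spike-scaled changes used the summed counts of 92 ERCC RNAs as the library size. Intronic counts were scaled by TMM factors of their own. P values were adjusted by Benjamini-Hochberg over all genes tested. ERCC counts ran from 660 to 388386 per library, and the number of counts limits the precision of Srm, Amd1 and all intronic values. In data simulated from these counts (9714 genes), the comparison of 3 h of triptolide in activated cells recovered 23 of 100 genes changed 2-fold and 89 of 100 changed 4-fold, with 3 false calls, and the activated minus resting difference recovered 4 and 42, with 1 false call. The simulation held only triptolide groups, the same spread for every gene and equal group means apart from the planted changes. Genes of lowest expression were given no change. These rates are thus not the power of the tests on the real libraries.

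Groups were taken from the labels. Replicate numbers were used as a block only as an alternative. Deviations of same-numbered libraries from their group means correlated at over 0.1 in every pair for 11 of the 17 main comparisons, which were therefore read as paired by the data, not by the labels. The main values of these comparisons still come from the fit without a block, which leaves that pairing out. Libraries were not read as paired for activation at 0 h, for triptolide in activated cells, for harringtonine added to triptolide in activated cells and for the 3 differences between states. For those differences the pairs included libraries of different states. Within each state the correlations were 0.145 or more for cycloheximide added to triptolide and 0.108 or more for cycloheximide alone. The main values of these differences leave out that pairing within states too. Alternatives were DESeq2 1.42.0, fits of only the libraries compared, no filter, RLE factors, library size alone, coding-sequence counts, leaving out the 2 shallowest libraries, 1 replicate number or replicate 3 of activated 3 h triptolide, and, for introns, library sizes from exons. Named were all 8 members, up to 4 called genes of the wider list per main comparison with the smallest p values and at least 10 CPM in 1 group, and the 3 genes most like each member (Pearson's r, mean of at least 10 CPM). Some genes under this rule are not reported here. The members and lists were chosen with earlier results of these data known. Tables and plots were made with Python 3.11.15, pandas 2.3.3, numpy 2.4.6 and matplotlib 3.10.9.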

Additional observations from a re-analysis of the deposited data

Results flagged for a closer look

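The change of Amd1 over 3 h of triptolide differed between activated and resting cells by a test of the difference itself, 2.84 on the relative log2 scale and 2.99 spike-scaled, with Amd1 lower after triptolide in resting cells in 3 of 3 libraries. Over 3 h without an inhibitor, mean Amd1 CPM also fell in resting and rose in activated cells, and the part of this was not tested. Srm responded differently to cycloheximide alone in the 2 states on the spike-in scale (-2.61, activated minus resting), on few Srm counts in resting cells. In activated cells the effect of cycloheximide depended on whether triptolide was present: the effect under triptolide minus that without was 3.17 (relative) and 3.46 (spike-scaled) for Srm and 1.38 (relative) for Odc1. Srm was higher with cycloheximide under triptolide and lower with cycloheximide alone on the relative scale.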

How the results depend on the processing

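Of 9149 values of the 8 genes recomputed under alternatives, 8577 kept their side of the threshold without reversing a call. Among these, 648 changed direction but were called in neither fit. Of the rest, 255 lost a call, 312 gained one and 5 reversed, that is, changed direction while called in either fit. The 5 were intronic values scaled by exon library sizes in place of their own: Azin1 with cycloheximide alone in resting cells (-1.06), Sms after triptolide with cycloheximide against 0 h in activated (-1.56) and resting cells (-1.67), and, after DRB with cycloheximide against 0 h, Amd1 (-0.32) and Sms (-1.10).

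The number of members called in a main comparison moved by a factor over 1.5 on the relative scale in these cases, and smaller moves are left out. With DRB 6 became 3 with only the libraries compared or with library size alone. With cycloheximide added to triptolide in resting cells 1 became 2 with only the libraries compared and 3 with library size alone. With cycloheximide added to DRB 3 became 1 with only the libraries compared. For the activated minus resting difference in triptolide decay 1 became 2 with no filter or library size alone. For that difference in the effect of cycloheximide alone 0 became 1 with DESeq2, only the libraries compared, no filter, RLE factors or library size alone. The cause was not tested.

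With a replicate block inside each state, 5 were called for cycloheximide added to triptolide in activated cells and 3 in resting cells, 5 for cycloheximide and 7 for harringtonine added to DRB, 6 and 2 for harringtonine added to triptolide in activated and resting cells, and, as differences between states, 4 for triptolide decay, 1 for cycloheximide under triptolide and 3 for cycloheximide alone. A block across states gave 5 for harringtonine added to DRB, 3 for the triptolide difference and 1 for that of cycloheximide alone. No call was lost with the block within state, which added 73 relative and 87 spike-scaled calls over all comparisons. No share of all genes is given for fits with a block, so these counts are not read as results about the members.

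Leaving out 1 replicate number gave 1 to 3 calls for activation at 0 h, 3 to 5 for triptolide in activated and 2 to 3 in resting cells, 3 to 5 for DRB, 2 to 3 and 1 to 1 for cycloheximide added to triptolide (activated, resting), 0 to 2 for cycloheximide added to DRB, 1 to 4 and 0 to 1 for cycloheximide alone, 0 to 3 and 0 to 1 for harringtonine added to triptolide, 1 to 3 for harringtonine added to DRB, 1 to 3 and 0 to 2 for harringtonine alone, and 0 to 2, 0 to 0 and 0 to 1 for the differences between states in triptolide decay, cycloheximide under triptolide and cycloheximide alone. Fewer libraries enter these fits. Srm had 3 to 22 counts in resting untreated libraries at 0 h, and small changes of it were not detectable at this depth.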
